A study of Mus musculus with 18 samples.

Results

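Nhej1 and 3 genes beside it on mouse chromosome 1, Ihh, Slc23a3 and Cnppd1, were followed through 18 brain libraries. They are 4 of the 53468 genes in the deposited count table, each found under 1 identifier. Nhej1 was chosen by its deposited count, which was high in single Fmr1CRE libraries, and the other 3 by their position. The values that chose Nhej1 are therefore given as a description, without a test, and the question asked of them was which transcripts carried the high counts and whether the neighbours followed.

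The poly(A) RNA came from the dissected forebrain, midbrain and hindbrain of 3 Fmr1CRE mice and 3 wild-type mice from 1 litter at postnatal day 25, and each mouse gave 1 library per region. Fmr1CRE is a germline knock-in made by genome editing of embryos, which places a variant in a cis-regulatory element of Fmr1, a gene on the X chromosome, and founders were crossed with C57BL/6 mice. The labels name no treatment. The tissue was bulk, so that fewer cells of a type and less RNA per cell cannot be told apart. Reads were single-ended and 50 bases long.

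Nhej1 encodes XLF, also called Cernunnos, a core factor of non-homologous end joining. In this pathway the Ku proteins bind broken DNA ends, and XLF bridges them together with XRCC4 so that DNA ligase IV can seal the break. Patients lacking XLF have immunodeficiency with small heads, since lymphocytes use the pathway to assemble antigen receptors and dividing neural progenitors use it to repair breaks. Ihh encodes Indian hedgehog, a secreted ligand best known from growing cartilage, where it signals through Patched and Smoothened. The region of Nhej1 is also known for holding enhancers of Ihh. Slc23a3 is placed by sequence in the family of ascorbate and nucleobase carriers, and Cnppd1 encodes a protein with a cyclin-like domain.

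All 4 genes lie on the minus strand of chromosome 1 in GRCm38 with GENCODE M21. Ihh (ENSMUSG00000006538) spans chr1:74945315-74951672, Nhej1 (ENSMUSG00000026162) chr1:74967139-75125200, Slc23a3 (ENSMUSG00000026205) chr1:75125541-75133890 and Cnppd1 (ENSMUSG00000033159) chr1:75134554-75142711. In the direction of transcription the order is thus Cnppd1, Slc23a3, Nhej1 and Ihh. There were 340 bases between Slc23a3 and the 5′ end of Nhej1, 663 bases between Cnppd1 and Slc23a3, and 15466 bases between Nhej1 and Ihh. No other annotated gene overlapped Nhej1.

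GENCODE M21 gives Nhej1 a pair of transcripts that do not touch. Nhej1-201 is the protein-coding one, 1053 bases long, at chr1:74967139-75046639. Nhej1-202 is a processed transcript of only 65 bases at chr1:75125136-75125200, and 78496 bases lie between them. RefSeq, on GRCm38.p6, has 1 transcript for the gene, and places its start at position 75125226, which is 26 bases upstream of Nhej1-202. The 5′ ends of both annotated pieces are printed because the counts of the gene turn on which piece a read is assigned to. The first line holds the first 30 bases of Nhej1-202 (chr1:75125171-75125200) and the second the first 60 bases of Nhej1-201 (chr1:75046580-75046639), both read on the minus strand.

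Nhej1-202: ctctcagtttgcgcaccaggacaggcccgc

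Nhej1-201: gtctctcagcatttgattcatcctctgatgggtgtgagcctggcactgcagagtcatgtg

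Nhej1-202 was rich in G and C, at 66.2% of its bases, and held 0 ATG triplets. None of its 35 stretches of 31 bases occurred in Nhej1-201 or, on either strand, in an annotated transcript of another gene. A read on Nhej1-202 could thus be told from reads on Nhej1-201 and on all other annotated transcripts.

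**Figure D1:**
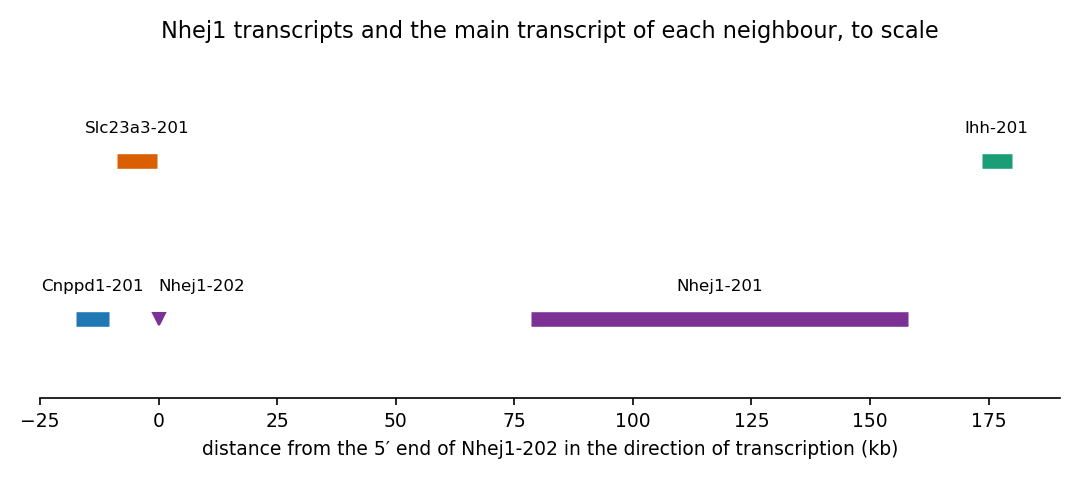
Map of both Nhej1 transcripts and the main transcript of Ihh, Slc23a3 and Cnppd1, with the distance from the 5′ end of Nhej1-202 in kb on the x axis and transcription running to the right. Bars are drawn to scale from start to end with introns included, and the triangle marks Nhej1-202, whose 65 bases are too short to draw. Slc23a3 lies 340 bases from Nhej1-202, and Nhej1-201 begins far downstream.

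Before the results, some facts of the whole series bear on the values. Deposited totals ran from 22455512 to 28061185 counts per library. Of 3 lists of 5 region markers, that of hindbrain separated all 3 regions without overlap, and that of midbrain set only midbrain apart. The hindbrain genes summed to 281 to 573 CPM, counts scaled to an equal library total, in hindbrain, to 61.6 to 188 in midbrain and to 0 to 5.56 in forebrain. The midbrain genes summed to 45.8 to 93 CPM in midbrain, 14.6 to 34.1 in hindbrain and 2.75 to 18.2 in forebrain. On this list hindbrain and forebrain overlapped, and the highest forebrain value was that of Fmr1CRE forebrain 3. The forebrain genes came to 207 to 267, 130 to 229 and 7.29 to 12.4 CPM in forebrain, midbrain and hindbrain, so the first 2 regions overlapped on this list. Fmr1 itself changed by 0.06 ± 0.07 (log2, SE) in the regions summed per mouse, with an adjusted p of 0.998. The libraries of replicate 3 stood apart. Of 13 genes that differed at least 4-fold between Fmr1CRE 3 and wild-type 3, with the same sign in midbrain and hindbrain, 11 had the other sign in the forebrain pair, against 2 of 9 genes for replicate 1 and 4 of 11 for replicate 2. Whether labels of replicate 3 were exchanged was not tested, and results are therefore also given without both of these mice.

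In the deposited gene counts Nhej1 was high in 3 libraries, all Fmr1CRE. In forebrain the Fmr1CRE libraries held 34, 30 and 28 counts and the wild-type libraries 27, 31 and 32. In midbrain the Fmr1CRE libraries held 30, 32 and 254 counts, against 21, 29 and 34 in wild type. In hindbrain they held 271, 282 and 38 counts, against 37, 44 and 42. Each Fmr1CRE mouse had exactly 1 high library, in the hindbrain for mice 1 and 2 and in the midbrain for mouse 3. The counts summed over regions were 335, 344 and 320 in the Fmr1CRE mice and 85, 104 and 108 in the wild-type mice. These are the values that chose the gene, so nothing is read from their separation.

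The same libraries showed no such rise in the reads that salmon assigned to the gene. In hindbrain the Fmr1CRE libraries held 48, 62 and 45 reads on Nhej1 and the wild-type libraries 44, 51 and 50. In midbrain there were 36, 37 and 31 reads in Fmr1CRE and 24, 33 and 40 in wild type. In forebrain there were 41, 36 and 33 reads against 32, 36 and 38. The genotypes overlapped in every region. Of the 3 libraries with high counts, Fmr1CRE hindbrain 2 had the most Nhej1 reads of all 18, whereas Fmr1CRE midbrain 3 had the fewest reads of the Fmr1CRE libraries. Summed over regions, the Fmr1CRE mice had 125, 135 and 109 reads and the wild-type mice 100, 120 and 128.

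**Figure D2:**
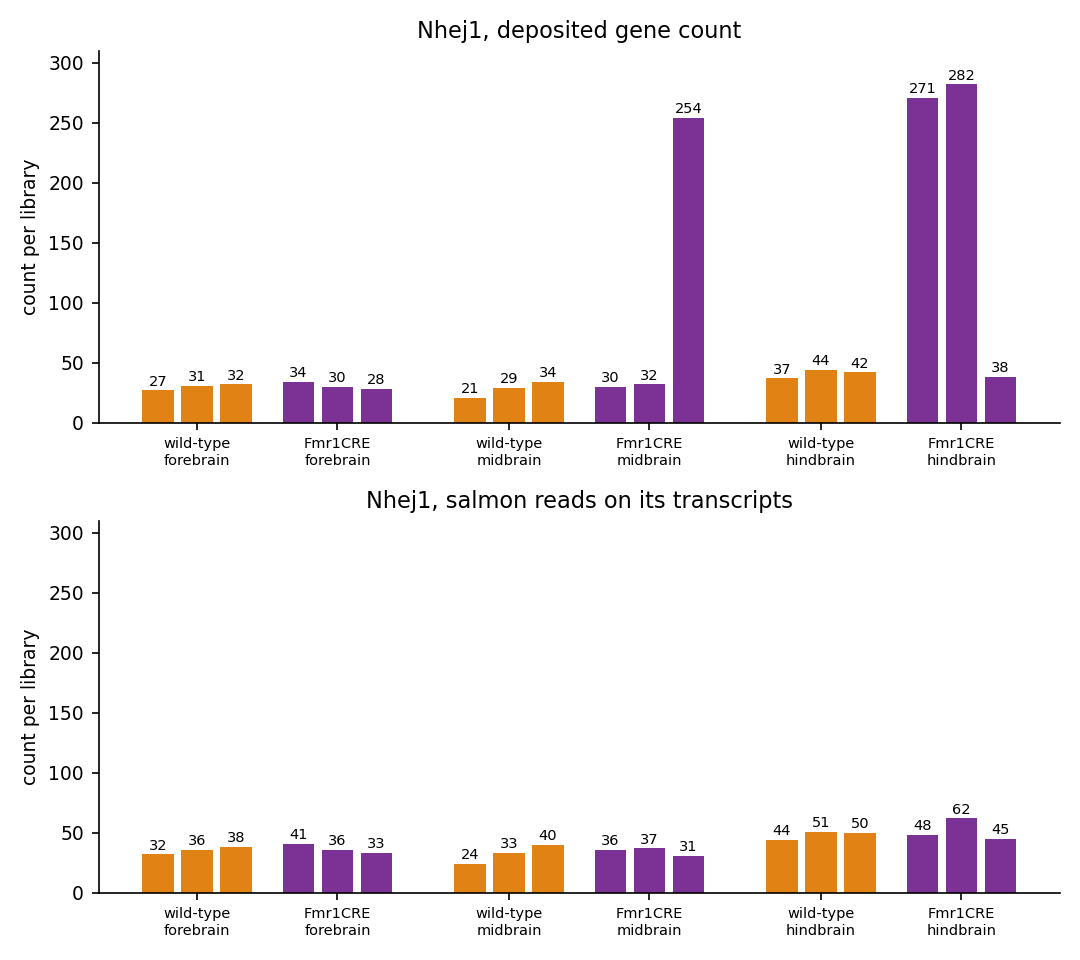
Nhej1 in each of the 18 libraries, by region and genotype, with replicates 1 to 3 from left to right in each group. The upper panel shows the deposited gene count, where 254, 271 and 282 stand out, and the lower panel, on the same axis, the salmon reads on both transcripts, which lie between 24 and 62.

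Scaled to the depth of the libraries by TMM, the mean deposited count of Nhej1 in hindbrain was 182.1 ± 122.5 (SD, n = 3) in Fmr1CRE and 38.2 ± 3.8 (SD, n = 3) in wild type. In midbrain the means were 107.4 ± 132.2 and 27.8 ± 3.82, and in forebrain 32.1 ± 1.97 and 31.4 ± 0.921. The SD of the Fmr1CRE groups in hindbrain and midbrain is that of 1 or 2 libraries set against the rest. On reads the hindbrain means were 50.5 ± 6.62 and 45.6 ± 3.92, the midbrain means 34.7 ± 2.89 and 31.9 ± 4.54, and the forebrain means 38.1 ± 3.25 and 36.4 ± 1.01. The log2 ratio of the hindbrain means was thus 0.15 on reads, against 2.26 on deposited counts. In midbrain it was 0.12 against 1.95, and in the mouse sums 0.11 against 1.73. Without both mice of replicate 3 the ratio of deposited counts was 0.22 in midbrain, 2.81 in hindbrain and 1.75 in the mouse sums.

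The deposited gene counts were not sums of reads. They equalled, within 0.51 counts, the TPM of a gene, its length-normalized share of all transcripts, scaled by its mean length and the depth of the library in 97.06% of gene and library values, whereas the summed reads equalled them in 67.79%. Over values above 0 the shares were 94.2% and 36.6%. In this scaling a read on a short transcript is worth more than a read on a long one, because TPM divides reads by effective length, the number of positions from which a fragment can come. The effective length of Nhej1-202 was 3 bases in every library, and that of Nhej1-201 was 777.2 to 844.6 bases.

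Nhej1-202 held 3 reads in the whole series. It had 1 read in Fmr1CRE hindbrain 1, 1 in Fmr1CRE hindbrain 2 and 1 in Fmr1CRE midbrain 3, and 0 in the other 15 libraries. These are the 3 libraries with the high deposited counts. Nhej1-201 held 714 reads, 99.582% of the 717 reads of the gene, with 47, 61 and 30 in the same 3 libraries. The length-scaled count rebuilt from the transcripts assigned 231.4 of the 271 counts in hindbrain 1 to the 1 read on Nhej1-202, which is 85.5% of the rebuilt value. In hindbrain 2 that read made 229.7 counts (81.5%) and in midbrain 3 it made 227.8 counts (89.8%). The rest, from Nhej1-201, came to 39.2, 52.1 and 25.8 counts.

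In TPM, the part of Nhej1-202 was 4.80, 6.07 and 6.72 in these 3 libraries, whereas Nhej1-201 ran from 0.665 to 1.378 over all 18. The read also moved the other libraries, in the opposite direction. The mean effective length of the gene over the libraries, to which all counts are scaled, was 695.4 bases, against 810.8 for Nhej1-201 alone, and the 15 libraries without the read had deposited counts of 0.829 to 0.879 per read. A count of 1 read has an exact 95% Poisson interval of 0.0253 to 5.57 reads on both sides, and a count of 0, by the one-sided limit, allows up to 3 reads. A difference in Nhej1-202 between any of these libraries was therefore not detectable at this depth, and both limits cover counting error only.

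**Figure D3:**
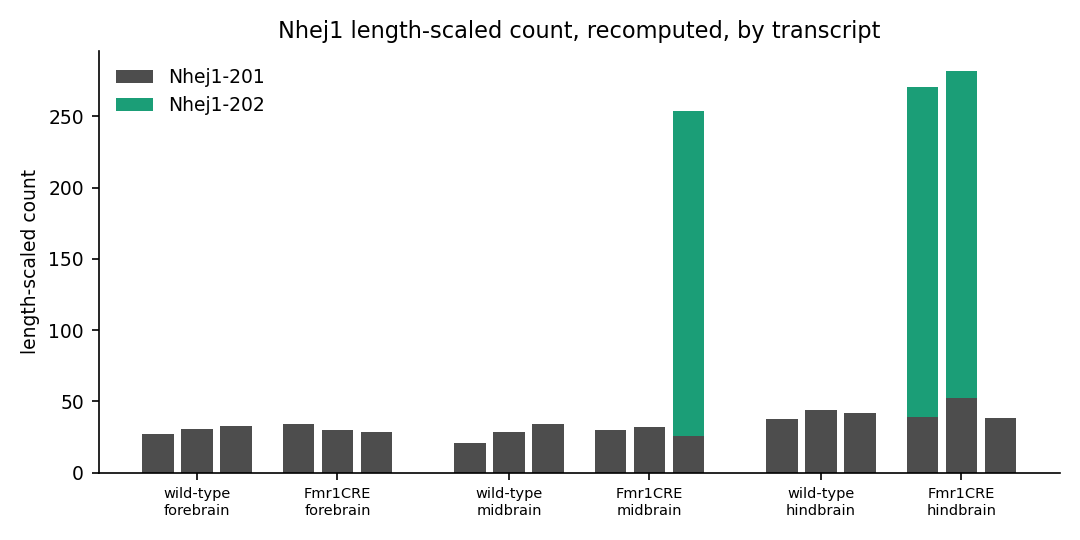
Length-scaled count of Nhej1 rebuilt from the transcript values, in each of the 18 libraries by region and genotype, replicates 1 to 3 from left to right. Dark bars are the part of Nhej1-201 and green bars the part of Nhej1-202, which is 227.8, 231.4 and 229.7 counts in 3 Fmr1CRE libraries and 0 in the rest.

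Nhej1 was not alone in the table. In 299 genes the deposited count of at least 1 library was at least 3 times the reads and at least 50 counts above them, and 66 of these had a read on a transcript with an effective length under 10 bases in that library. In all, 6684 transcripts (4.9%) had so short an effective length, and 2121 of them held a read. Over all genes and libraries, 858 values passed both limits on counts, and 212 of them came with a read on so short a transcript. With or without such a read, values past both limits numbered 452 in the Fmr1CRE libraries and 406 in the wild-type libraries. Within 250 kb of Nhej1 there were 37 annotated genes, and 1 of them, Nhej1, had a value past both limits.

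In the edgeR quasi-likelihood test on the mouse sums, 1 of 22191 genes had an adjusted p under 0.05, which is 0.00451%, and this gene was Nhej1. It is the contrast that chose the gene, so nothing is read from the call. When reads replaced the deposited counts 0 genes were called, and nothing is read from that about Nhej1 either. In midbrain 1 gene of 18400 was called (0.00543%), and it was Gm5436, not one of the 4 genes. In forebrain and hindbrain the share of genes called was 0%, with 1002 and 981 genes at an unadjusted p under 0.05. The interaction of genotype and region, fitted with the regions of a mouse taken as independent, also gave 0%, with 1535 genes under that level. In the mouse sums 820 of the 22191 genes were under it. DESeq2 called 31, 62 and 60 genes in forebrain, midbrain and hindbrain, 29 in the mouse sums and 51 for the interaction.

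Among the 3 neighbours, 0 were called in any region or in the mouse sums by edgeR on deposited counts or on reads, or by DESeq2. On deposited counts only Cnppd1 passed the filter on low counts in single regions, while all 3 passed it in the mouse sums.

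Slc23a3 was at the edge of detection. In hindbrain it had 0, 2 and 4 reads in Fmr1CRE and 1, 0 and 3 in wild type. In midbrain it had 7, 6 and 6 reads in Fmr1CRE and 12, 8 and 8 in wild type. In forebrain it had 10, 7 and 8 reads against 5, 16 and 15. In 2 of the 3 libraries where the Nhej1 count was high, Fmr1CRE hindbrain 1 and 2, Slc23a3 held 0 and 2 reads, and in the third, Fmr1CRE midbrain 3, it held 6.

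Summed over regions, the normalized reads of Slc23a3 were 17.1 ± 2.13 (SD, n = 3) in Fmr1CRE and 23.0 ± 2.77 in wild type, and the groups did not overlap. The exact permutation test, two-sided, gave p = 0.1, the smallest that 3 against 3 can give, and 0.686 after adjustment over 12 tests. On deposited counts the fitted change was -0.39 ± 0.26 (log2, SE), with an edgeR adjusted p of 0.998, and -0.35 without replicate 3. The edgeR test of the interaction of genotype and region gave an adjusted p of 0.869.

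Ihh was also near the floor, with 2 to 8 reads in every library. In hindbrain it had 3, 2 and 4 reads in Fmr1CRE and 2, 6 and 8 in wild type. In midbrain it had 5, 8 and 7 reads against 8, 8 and 3. In forebrain it had 4, 7 and 4 reads against 6, 5 and 2. The groups overlapped in all 3 regions. In the mouse sums the fitted change was -0.15 ± 0.33 (log2, SE; edgeR adjusted p = 0.998), and -0.40 without replicate 3. The 6 genes fixed as markers of cartilage and bone summed, on deposited counts, to 7.56 to 45.5 CPM in forebrain, 8.03 to 21.9 in midbrain and 12.2 to 18.4 in hindbrain. All 6 were above 0 in every region. The 45.5 was that of Fmr1CRE forebrain 1 alone, and the next forebrain library was at 9.53. Sp7, 1 of the 6, had a deposited count 789 above its reads in 1 library, with a read on a transcript of effective length under 10 bases. The part of these markers in the Ihh reads was not tested.

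Cnppd1 was the best measured of the neighbours. Its reads in hindbrain were 595, 652 and 471 in Fmr1CRE and 553, 682 and 497 in wild type. In midbrain they were 482, 614 and 559 against 550, 591 and 647. In forebrain they were 703, 640 and 513 against 481, 497 and 616. The groups overlapped in every region, and the lowest Fmr1CRE forebrain and the highest wild-type forebrain library were both of replicate 3.

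The fitted change of Cnppd1 on deposited counts was 0.27 ± 0.21 (log2, SE) in forebrain, -0.17 ± 0.14 in midbrain and 0.08 ± 0.17 for the hindbrain, and the edgeR adjusted p was 0.821, 0.878 and 0.96. With 1 mouse left out the forebrain change ranged from 0.10, without Fmr1CRE replicate 1, to 0.48, without Fmr1CRE replicate 3, and it was 0.18 without Fmr1CRE replicate 2 and 0.45 without both mice of replicate 3. The midbrain change ranged from -0.31, without Fmr1CRE replicate 2, to -0.05, without Fmr1CRE replicate 1, and none of these passed the threshold. In the mouse sums it was 0.07 ± 0.11 (adjusted p = 0.998), and the interaction with region had an adjusted p of 0.776. The spread among libraries was wider on deposited counts than on reads. In the Fmr1CRE forebrain the SD of the normalized values was 174.9 on deposited counts and 84.4 on reads, at means of 669.9 and 642.0.

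The 8 annotated transcripts of Cnppd1 share most of its reads among 3 of them. Cnppd1-201, protein coding, held 47.5%, Cnppd1-208, also protein coding, 25.8% and Cnppd1-205, a retained intron, 16.4%. Its deposited counts were 0.779 to 1.249 times its reads. Neither Ihh (0.875 to 1.333 times) nor Slc23a3 (0.857 to 1.429 times) reached the 8.194 times of Nhej1 in Fmr1CRE midbrain 3.

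**Figure D4:**
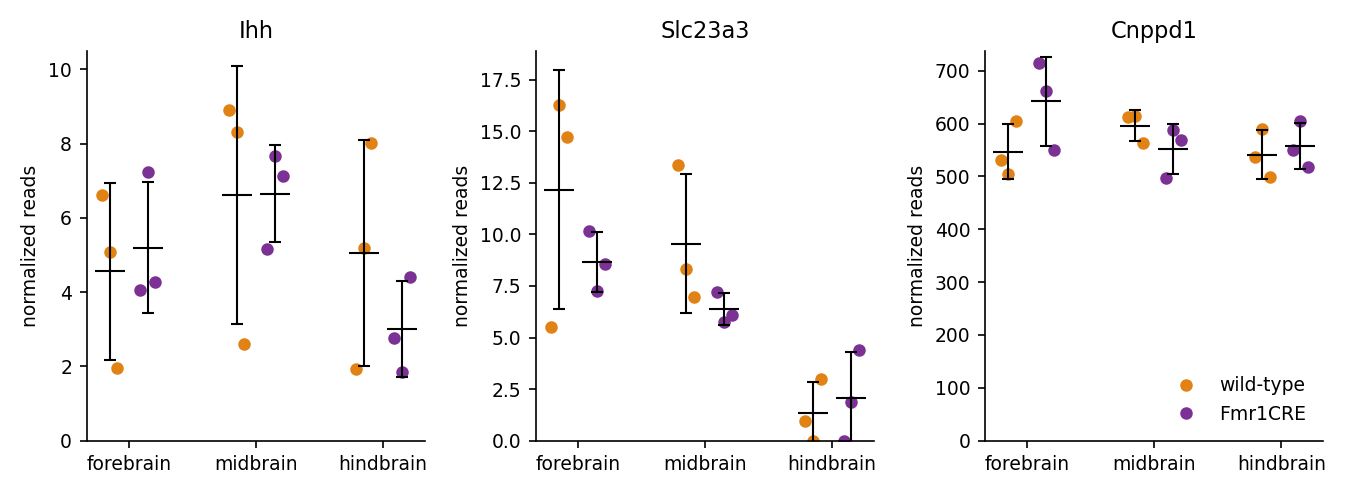
Reads of Ihh, Slc23a3 and Cnppd1 normalized to library depth by TMM, by region, with wild type in orange and Fmr1CRE in purple. Points are libraries, and black bars give the mean and SD of 3 libraries. The genotypes overlap in every region for Ihh, Slc23a3 and Cnppd1, and Slc23a3 is lowest in hindbrain in both genotypes.

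Per length the genes fell in the order Cnppd1, Nhej1, and then Slc23a3 and Ihh. Cnppd1 ran from 3.76 to 8.08 TPM over the 18 libraries and Nhej1-201 from 0.665 to 1.378 TPM, so these did not overlap. With the reads of Nhej1-202 added, however, the gene value of Nhej1 in its 3 high libraries reached 5.62, 7.45 and 7.48 TPM, within the range of Cnppd1. Slc23a3 (0 to 0.168 TPM) and Ihh (0.0093 to 0.0652 TPM) overlapped.

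The wild-type libraries gave the levels of the genes by region, a comparison that did not choose them. On reads, Nhej1 was at 45.6 ± 3.92 (SD, n = 3) normalized reads in hindbrain, 36.4 ± 1.01 in forebrain and 31.9 ± 4.54 in midbrain. None of these neighbouring levels differed past the threshold on deposited counts, where hindbrain was above midbrain by 0.47 ± 0.23 (log2, SE; edgeR adjusted p = 0.133) and above forebrain by 0.29 ± 0.23 (adjusted p = 0.337). On reads the difference between hindbrain and midbrain was 0.49 ± 0.20, with an adjusted p of 0.0585. Midbrain was at -0.18 ± 0.23 from forebrain (adjusted p = 0.695).

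Slc23a3 was the only member with a called difference between regions. It was lower in hindbrain than in forebrain by a log2 fold change of -3.10 ± 0.77 (edgeR adjusted p = 0.00856), where 42.7% of all 19442 genes tested were called and 22.4% were called lower. It was also lower in hindbrain than in midbrain, at -2.94 ± 0.77 (adjusted p = 0.0136), where 38.5% of genes were called and 21.1% called lower. Against this background a call for 1 gene in 3 tested is not particular to the locus. Both rest on 1, 0 and 3 reads in the wild-type hindbrain. Without wild-type replicate 2 the first was -2.26 (adjusted p = 0.0885) and the second -2.48 (adjusted p = 0.0809), and without wild-type replicate 1 the second was -2.42 (adjusted p = 0.122). The Fmr1CRE hindbrain libraries, outside this test, also held fewer reads (0 to 4) than the Fmr1CRE forebrain (7 to 10) and midbrain (6 to 7) libraries.

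On deposited counts, lists of other cell types moved with the regions. The 5 choroid plexus genes summed to 911 to 3460 CPM in hindbrain, 344 to 905 in forebrain and 158 to 474 in midbrain, with all 5 above 0 in each. The 5 red blood cell genes came to 1090 to 2910, 478 to 1610 and 459 to 1030 CPM in the same order. The 7 lymphocyte genes were at 1.11 to 2.72, 23 to 36.9 and 0.915 to 9.28 CPM, and the 5 genes of dividing cells at 8.63 to 11.8, 17.4 to 22.9 and 7.64 to 12.3 CPM. Cd4, 1 of the lymphocyte genes, had deposited counts at least 3 times its reads in 8 libraries, by up to 583 counts. How much of the lymphocyte sums this made was not tested. The part of these lists in the difference of Slc23a3 was not tested. Cnppd1 differed by at most -0.15 ± 0.15 (log2, SE) between wild-type regions, with adjusted p of 0.454 or more. Ihh did not pass the filter on low counts there, with 2 to 8 reads in the wild-type libraries.

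Within 250 kb, 25 protein-coding genes surround Nhej1, and 24 passed the filter in the mouse sums. Of these, 0 were called between genotypes by edgeR or by DESeq2, against the 0.00451% of all genes. Beside 820 of all 22191 genes, 2 of the 24 had an unadjusted p under 0.05. The log2 fold changes of the 24 were above 0 in 9 and below 0 in 15, with a median of -0.03 beside 0 over all genes tested. The 2 genes were Fev, a transcription factor of serotonin neurons, at -0.86 ± 0.30 (log2, SE), and Wnt6, a secreted ligand, at -0.53 ± 0.19, each with an adjusted p of 0.998. On reads their changes were -0.56 and -0.32. Neither lies next to Nhej1, from which Fev is 81720 bases and Wnt6 181817 bases away. Among the nearer genes beyond Cnppd1, Retreg2 was at 0.03 ± 0.15, Zfand2b at 0.05 ± 0.08 and the porphyrin transporter Abcb6 at -0.04 ± 0.09. By region the surrounding genes leaned in different directions. In forebrain 13 were above 0 and 6 below, in midbrain 5 and 15, and in hindbrain 5 and 17. Their medians were 0.167, -0.1 and -0.106, beside 0.001, -0.005 and -0.009 over all genes tested. Without both mice of replicate 3 these medians were 0.243, -0.22 and -0.106.

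**Figure D5:**
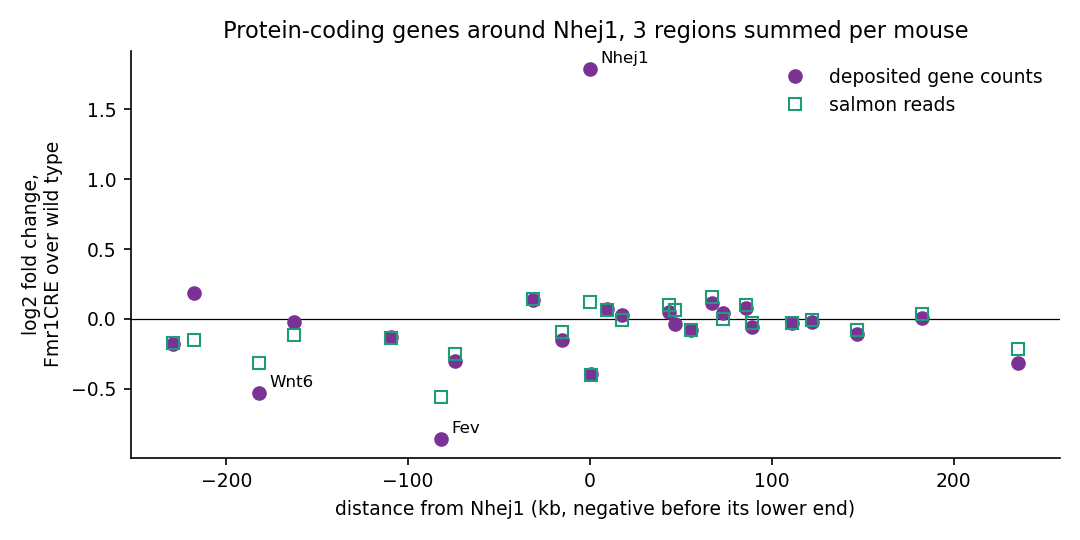
Log2 fold change of Fmr1CRE over wild type, 3 regions summed per mouse, against the distance from Nhej1 in kb for Nhej1 and the 24 protein-coding genes around it that passed the filter. Filled circles are fits on deposited gene counts and open squares fits on salmon reads. Nhej1 is at 1.79 on deposited counts and 0.12 on reads, and the other genes lie between -0.86 and 0.19 on deposited counts.

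Between wild-type regions the same surrounding genes were called often. In hindbrain against forebrain, 8 of 23 tested were called higher and 5 lower, where 20.3% and 22.4% of all genes were. Cyp27a1, the sterol 27-hydroxylase, was higher by 2.47 ± 0.23 (log2, SE; edgeR adjusted p = 2.51e-05), and Cdk5r2, an activator of the kinase Cdk5, was lower, at -2.70 ± 0.18 (adjusted p = 2.73e-06). In hindbrain against midbrain, 6 were called higher and 6 lower, beside 17.4% and 21.1% of all genes. The ligand Wnt10a was lower there, at -2.53 ± 0.29 (adjusted p = 0.000176). In midbrain against forebrain 8.89% of genes were called, and of the 23 tested 4 were higher and 1 lower, beside 4.57% and 4.32%. Fev was at 31 to 71 counts in wild-type midbrain, 17 to 18 in hindbrain and 0 in the 3 forebrain libraries.

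Partners of XLF and other end-joining genes were tested in the same fits. Of 15 end-joining genes, all 15 were tested in each region and in the mouse sums, and 0 were called by edgeR or DESeq2. Beside 820 of all 22191 genes, 1 of these 15 had an unadjusted p under 0.05 in the mouse sums. Their median log2 fold change there was 0.06, beside 0 over all genes, with 11 above and 4 below 0. By size, Rif1, which limits the resection of DNA ends, was at 0.25 ± 0.07 (log2, SE), the polymerase Poll at -0.19 ± 0.11 and Xrcc5, which encodes Ku80, at -0.15 ± 0.08, with adjusted p of 0.998. Xrcc4, the direct partner, was at -0.01 ± 0.09 and Lig4 at 0.13 ± 0.10. Between wild-type hindbrain and forebrain, 3 of the 15 were called higher, Rif1, Poll and Xrcc5, and 1 lower, Trp53bp1, beside 20.3% and 22.4% of all genes, so the list was called no more often than genes at large.

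Of 15 hedgehog ligands, receptors and effectors, 0 were called between genotypes by edgeR or DESeq2 in any region or in the mouse sums, where the median was 0.00 and 1 gene was under an unadjusted p of 0.05. That gene was the ligand Dhh, at 0.81 ± 0.34, and 820 of all 22191 genes were under that level. The ligand Shh was at -0.14 ± 0.12 and the effector Gli1 at 0.13 ± 0.15. Between wild-type hindbrain and forebrain 2 of 14 were called higher, Gli1 and Hhip, and 3 lower, Gli2, Gli3 and Sufu, where 20.3% and 22.4% of all genes were, so these shares too were not above the background.

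Of 12 targets of p53, which is activated by DNA breaks, 0 were called between genotypes by either tool in any region or in the mouse sums. In these comparisons edgeR called at most 0.00543% of all genes, so a 0 is not particular to this list or to those above. In forebrain, midbrain and hindbrain 1, 0 and 0 of the 12 had an unadjusted edgeR p under 0.05. Over all genes this held for 1002 of 18467, 1135 of 18400 and 981 of 19112. In the mouse sums it held for 0 of the 12, beside 820 of all 22191 genes. The median was -0.03, and the largest changes were those of the receptor Eda2r (-0.16 ± 0.30), Phlda3 (-0.15 ± 0.08), the apoptosis gene Bbc3 (-0.15 ± 0.15) and Mdm2, which degrades p53 (0.13 ± 0.07). Of the 3 carriers related to Slc23a3, 0 were called between genotypes, against the same share of all genes. Slc23a2, which carries ascorbate into neurons, was at 0.00 ± 0.10 between genotypes, and it was called lower in wild-type hindbrain than in forebrain (-1.02 ± 0.23), where 22.4% of all genes were called lower. The other carriers, Slc23a1 (0.32 ± 0.45) and Slc23a4 (0.36 ± 0.45), were not called there. Without both mice of replicate 3, 0 genes of the 4 lists and of the surrounding genes were called between genotypes in any region or in the mouse sums.

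The genes most like Nhej1 over the 18 libraries depended on which counts were used. On deposited counts, with the median of each region subtracted from log2 CPM, Pearson's r was highest for 5330416C01Rik (0.763), Aox4 (0.745), Mcph1 (0.719), Gpr107 (0.703) and Gm43078 (0.698) among 20362 genes. On reads it was highest for Gm10421 (0.811), Mfsd8 (0.81), Rbm45 (0.805), Dctd (0.804) and Slc4a7 (0.739), and 0 genes were in both groups of 5. The libraries are the same in both and share their depth, and these values are descriptions. In hindbrain the first gene of each group was near the floor. There 5330416C01Rik held 7, 6 and 1 deposited counts in Fmr1CRE and 1, 1 and 1 in wild type. Gm10421 held 1, 4 and 2 reads in Fmr1CRE hindbrain and 0, 1 and 6 in wild-type hindbrain. Aox4, an aldehyde oxidase, had 86 deposited counts and 13 reads in Fmr1CRE hindbrain 1, and 125 counts and 34 reads in Fmr1CRE midbrain 3, so its deposited counts stood well above its reads in 2 of the libraries where Nhej1 did. Unlike Nhej1, it had 0 libraries in which this came with a read on a transcript of effective length under 10 bases. For Cnppd1 the r with Nhej1 was 0.06 on deposited counts and 0.13 on reads, and for Slc23a3 it was -0.31 and 0.12.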

How the data were processed

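Per the labels and the study's methods, poly(A) RNA was sequenced on an Illumina instrument in 2 pools of 9 libraries, whose members are not named, so a difference between pools was not tested. The authors ran the bcbio_nextgen pipeline with salmon 0.14.0 and DESeq2 1.30.1 on mm10, and deposited expected counts per gene, whole numbers that proved to be TPM scaled by length and depth, without normalization between libraries. They also deposited expected counts (reads) and TPM per transcript for each library. The copy of log2 variance-stabilized values was not used here, and 0 measured columns of the count table were left unused. The transcript sets were assigned to libraries by the mouse and region they are named for: all 18 were closest to that library after recomputation, and 2 to the record they are attached to.

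Symbols and positions came from GENCODE M21 (53431 of 53468 identifiers matched). Groups were compared with edgeR 4.0.16 in R 4.3.3, by its quasi-likelihood test after TMM normalization and filterByExpr, at a Benjamini-Hochberg adjusted p of 0.05 over all genes. Genotypes were compared within each region and in counts summed per mouse, because a mouse's 3 regions are not independent samples. The interaction of genotype and region was fitted on all 18 libraries, and its p takes these regions as independent. Regions were compared in the 9 wild-type libraries. Exact permutation tests on normalized values were two-sided and adjusted over 12 tests per kind of count. Log2 CPM used a prior count of 2. The design had assumed read counts, and the test was kept with deposited values as they are and with reads summed per gene and rounded as an alternative chosen after seeing the data. On simulated hindbrain counts with 200 genes changed by 1.5 (log2) among 18882, the edgeR test recovered 99%, and called 10 unchanged genes. The changed genes were drawn only from those with higher mean counts, and the dispersion was the same for every gene. The recovery therefore does not hold for genes as low as Ihh and Slc23a3.

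The 4 genes and all lists were chosen with earlier results of these data known. The genes named were the 4 members, protein-coding genes within 250 kb, up to 4 genes of each list by size in the mouse sums, and the 5 genes most like Nhej1, except 2 list genes that are not reported here. Xrcc4, Lig4, Gm5436 and the genes of lists called between regions were named after their values were seen. Alternatives were DESeq2 1.42.0, its size factors in edgeR, total counts alone, other filters, 1 fit of all libraries, genotype as a covariate, a replicate block, and mice left out. Wild-type regions are paired by mouse, from the labels, and deviations of regions of 1 wild-type mouse correlated between -0.09 and 0.12. Mice were the replicates. Counting error limits Ihh, Slc23a3 and Nhej1, which had at most 62 reads in a library.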

Additional observations from a re-analysis of the deposited data

How the results depend on the processing

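Of 226 alternative values of the members' fold changes and ratios, 205 kept their direction and their side of the threshold or moved by less than the spread of replicates, and of 106 alternative counts of calls 60 stayed within 1.5 times. The ratio of Nhej1 turned on the kind of count and not on the scaling. On reads it was 0.121 in midbrain, 0.146 in hindbrain and 0.113 in the mouse sums (log2), and on reads of Nhej1-201 alone 0.107, 0.128 and 0.102. Leaving out 1 mouse at a time gave 0.163 to 2.391 in midbrain, the lowest without Fmr1CRE replicate 3, and leaving out both mice numbered 3 gave 0.215. With all 18 libraries and genotype as a covariate, Nhej1 was at 0.724 between midbrain and forebrain and at 1.367 between hindbrain and forebrain. This fit includes the Fmr1CRE libraries whose high counts chose Nhej1, so both values are a description without a test. In the wild-type libraries alone they were -0.177 and 0.288. Cnppd1 was at -0.144 between midbrain and forebrain in the fit of all 18 libraries. On total counts alone Cnppd1 was at 0.065 between hindbrain and forebrain. With 1 mouse left out, changes that were not called passed through 0: Cnppd1 ranged from -0.07 to 0.208 between genotypes in hindbrain, from -0.023 to 0.171 in the mouse sums, from -0.275 to 0.089 between hindbrain and forebrain and from -0.346 to 0.015 between hindbrain and midbrain. Ihh ranged from -0.35 to 0.076 in the mouse sums, and Slc23a3 from -0.852 to 0.224 between midbrain and forebrain. The called differences of Slc23a3 ranged from -4.226 to -2.26 between hindbrain and forebrain and from -4.384 to -2.425 between hindbrain and midbrain, and were past the threshold except without wild-type replicate 2 in both and without wild-type replicate 1 in the second.

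Counts of genes called between genotypes were small and moved with most choices, and the cause was not tested. DESeq2 gave 31, 62 and 60 in forebrain, midbrain and hindbrain, 29 in the mouse sums and 51 for the interaction. Without a filter there were 11 in midbrain, 11 in hindbrain, 4 in the mouse sums and 7 for the interaction, and with at least 10 counts in every library 0 in midbrain. On reads there were 2 in midbrain, 1 in hindbrain and 0 in the mouse sums, and in 1 fit of all libraries 1, 0 and 1 in the 3 regions. With 1 mouse left out there were 0 to 4 in midbrain, 0 to 5 in hindbrain, 0 in the mouse sums and 0 to 4 for the interaction. Without both mice numbered 3 there were 3 in midbrain, 1 in hindbrain, 0 in the mouse sums and 131 for the interaction. Between wild-type regions, midbrain against forebrain gave 2604 with DESeq2, 3103 on reads, 3858 with all 18 libraries and 255 to 2308 with 1 mouse left out, hindbrain against forebrain 5005 to 8182 and hindbrain against midbrain 2944 to 8048.

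Between genotypes mice share only a replicate number, and the deviations of same-numbered libraries correlated between -0.12 and 0.07. With the replicate block the mouse sums gave 0 calls in place of 1, and with wild-type regions blocked by mouse the counts of calls went from 1729 to 1261 (midbrain against forebrain), 8299 to 7885 (hindbrain against forebrain) and 7489 to 6901 (hindbrain against midbrain). It changed no call of Ihh, Slc23a3 or Cnppd1, nor any of Nhej1 between regions. Depth limits Ihh, Slc23a3 and Nhej1-202, with 0 to 16 reads in a library, and also Nhej1, with 24 to 62.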
